A study of Mus musculus with 10 samples.

Results

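The nuclear genes of the mitochondrial respiratory chain and ATP synthase were described in developing B cells of mouse bone marrow. All gene names that start with Nduf, Uqcr, Cox4i, Cox5, Cox6, Cox7, Cox8 or Atp5 were taken, together with Sdha, Sdhb, Sdhc, Sdhd and Cyc1, and Cox6a2 and names of pseudogenes (-ps) were left out. The rule used names and no measured value. It gave 92 of the 23420 genes in the files, of which 45 belong to complex I by name, 4 to complex II, 9 to complex III, 17 to complex IV and 17 to ATP synthase. The 13 subunits encoded by mitochondrial DNA were not analysed here.

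RNA was sequenced from 10 libraries of C57BL/6 bone marrow. Pro-B cells were sorted as B220+ IgM- CD43+, and small pre-B cells as B220+ IgM- CD43- cells of small size by light scatter. Each cell type came from control mice and from mice labelled Mta2_VavKO, a knockout (KO) of Mta2 whose label names Vav, a gene active across blood cells. Mta2 belongs to NuRD, a complex that remodels nucleosomes and removes acetyl groups from histones. There were 2 libraries per genotype of pro-B cells and 3 per genotype of small pre-B cells. The labels give neither the age of the mice nor the alleles of the controls, and nothing says which libraries came from separate animals, so p-values measure the spread between these libraries.

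The respiratory chain sits in the inner mitochondrial membrane. Complex I takes electrons from NADH and complex II from succinate, complex III passes them to cytochrome c, complex IV passes them to oxygen, and ATP synthase uses the proton gradient that complexes I, III and IV build. Most subunits are encoded in the nucleus, and several subunits of complex IV and ATP synthase exist as isoforms from separate genes. Pro-B cells rearrange the immunoglobulin heavy chain gene, large pre-B cells divide, and small pre-B cells rest while they rearrange a light chain gene.

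Total counts ranged from 48860391 to 52127004 in pro-B libraries and from 17805507 to 38392136 in small pre-B libraries, and the level of 3 counts was between 0.054 and 0.173 CPM (counts scaled between libraries, per 1e6). Levels of Mta2, the check of the labels, were 436 and 375 CPM in pro-B controls and 163 and 166 CPM in pro-B KO. At the small pre-B stage they were 438, 246 and 412 CPM in controls and 199, 179 and 198 CPM in KO. Genotypes did not overlap at either stage. In edgeR's quasi-likelihood test Mta2 did not pass in pro-B cells (log2 fold change -1.31 ± 0.24 SE, adjusted p = 0.212). It passed in small pre-B cells (-0.93 ± 0.19, adjusted p = 0.042). Small pre-B control 3 stood apart, with 1.4% of its counts on Malat1 and 0.953% on histone genes. The number in its file header is not the one in its title but the one in the title of small pre-B control 2. It was analysed under its own title. The sort was checked by marker lists. Summed over 10 myeloid and granulocyte genes, the level was 8957 to 9000 CPM in pro-B controls, 13718 to 20252 CPM in pro-B KO, 118 to 331 CPM in small pre-B controls and 212 to 433 CPM in small pre-B KO. Summed over 7 plasmacytoid dendritic cell genes, it was 5701 to 6176 and 6145 to 6850 CPM in pro-B controls and KO, and 537 to 593 and 614 to 709 CPM in small pre-B controls and KO. This sum hides opposite moves at the pro-B stage. Mean Cd209d went from 53.8 (control) down to 5.06 CPM (KO), and mean Klk1 from 85.4 down to 7.01 CPM. For pro-B KO over control, 5 of the 7 genes had a log2 fold change above 0 and 2 below, and 0 passed (edgeR). The 10 B lineage genes summed to 2388 to 3082 CPM in pro-B and 9354 to 13915 CPM in small pre-B libraries. The 8 red cell genes summed to 33.2 to 39.0 CPM in pro-B controls, 14.1 to 44.4 CPM in pro-B KO, 4.07 to 25.1 CPM in small pre-B controls and 1.31 to 35.2 CPM in small pre-B KO, with Hbb-b1 and Hba-a1 listed at 0 in all 10 libraries. The 10 T cell genes summed to 377 to 447 CPM in pro-B controls and 504 to 545 CPM in pro-B KO. The 8 natural killer genes summed to 525 to 605 and 397 to 607 CPM. The 7 stem and progenitor genes summed to 309 to 378 and 405 to 559 CPM. The T cell, natural killer and stem and progenitor sums were lower in every small pre-B library, with values given further on. The part of these other cell types in the differences between pro-B and small pre-B cells was not tested.

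The genes of subunit c of ATP synthase, the ring that turns as protons pass, show how members for the same protein can differ in level. Atp5g1 (chromosome 11), Atp5g2 (chromosome 15) and Atp5g3 (chromosome 2) each encode a different leader peptide, which is cut off, and the same mature subunit. The last 75 codons before the stop codon are printed here from the GRCm38 annotation, with the positions that differ among the 3 genes in capitals, because they show both facts at once.
Atp5g1: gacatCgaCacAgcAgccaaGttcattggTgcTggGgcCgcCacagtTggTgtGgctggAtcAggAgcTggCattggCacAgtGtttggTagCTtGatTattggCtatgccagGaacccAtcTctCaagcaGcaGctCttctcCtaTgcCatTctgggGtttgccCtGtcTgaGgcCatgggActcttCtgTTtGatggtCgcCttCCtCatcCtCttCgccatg
Atp5g2: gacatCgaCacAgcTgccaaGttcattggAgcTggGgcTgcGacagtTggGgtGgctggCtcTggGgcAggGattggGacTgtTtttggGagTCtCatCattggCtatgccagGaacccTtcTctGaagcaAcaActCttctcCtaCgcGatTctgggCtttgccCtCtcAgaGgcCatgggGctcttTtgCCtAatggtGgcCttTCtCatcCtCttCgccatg
Atp5g3: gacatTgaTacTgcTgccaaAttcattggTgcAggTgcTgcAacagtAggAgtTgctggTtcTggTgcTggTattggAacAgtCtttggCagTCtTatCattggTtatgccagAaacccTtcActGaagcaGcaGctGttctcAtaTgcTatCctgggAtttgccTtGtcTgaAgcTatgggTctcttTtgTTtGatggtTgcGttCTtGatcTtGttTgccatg
Of these 225 bases 57 differ among the 3 genes. Atp5g2 differs from Atp5g1 at 34 bases and Atp5g3 at 45, and 0 residues of the encoded protein differ.

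Per length of exon, Atp5g3 was the highest of the 3 genes in every library, and Atp5g1 and Atp5g2 were lower at the small pre-B stage. Atp5g1 was at 40.5 and 36.8 CPM in pro-B controls and at 16.4, 16.5 and 17.2 CPM in small pre-B controls. The KO libraries had 35.6 and 34.9 CPM at the pro-B stage, against 19.4, 18.2 and 17.5 CPM at the small pre-B stage. Pro-B and small pre-B libraries did not overlap in either genotype, and the gene was lower in small pre-B cells by a log2 fold change of -1.21 ± 0.11 (SE; adjusted p = 3.45e-05, edgeR's quasi-likelihood test) in controls and -0.94 ± 0.11 (adjusted p = 0.000134) in KO. Atp5g2 was at 24.1 and 24.4 CPM in pro-B controls and at 13.6, 12.9 and 17.5 CPM in small pre-B controls, a log2 fold change of -0.72 ± 0.17 (adjusted p = 0.0067). Atp5g3 was at 122 and 115 CPM in pro-B controls and at 107, 111 and 51.8 CPM in small pre-B controls, and it did not pass (log2 fold change -0.40 ± 0.27, adjusted p = 0.235). Small pre-B control 3 alone was far below the rest, and without it the log2 fold change of Atp5g3 was -0.11 ± 0.10.

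Of the summed level per length of the 3 genes, Atp5g1 held 17.8% and 17.0% in pro-B controls and 16.6% and 16.1% in pro-B KO. It held 9.57%, 9.36% and 16.1% in small pre-B controls and 8.12%, 9.16% and 7.97% in small pre-B KO. Control 3, where Atp5g3 was low, was the only small pre-B library with a share near that of the pro-B libraries. Of the 50-base stretches of their transcripts, 56.2% in Atp5g1 and 46.4% in Atp5g2 also occur in annotated transcripts of other genes. Part of the reads of Atp5g1 and Atp5g2 may thus have gone uncounted, in a share that depends on the authors' counting.

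**Figure D1:**
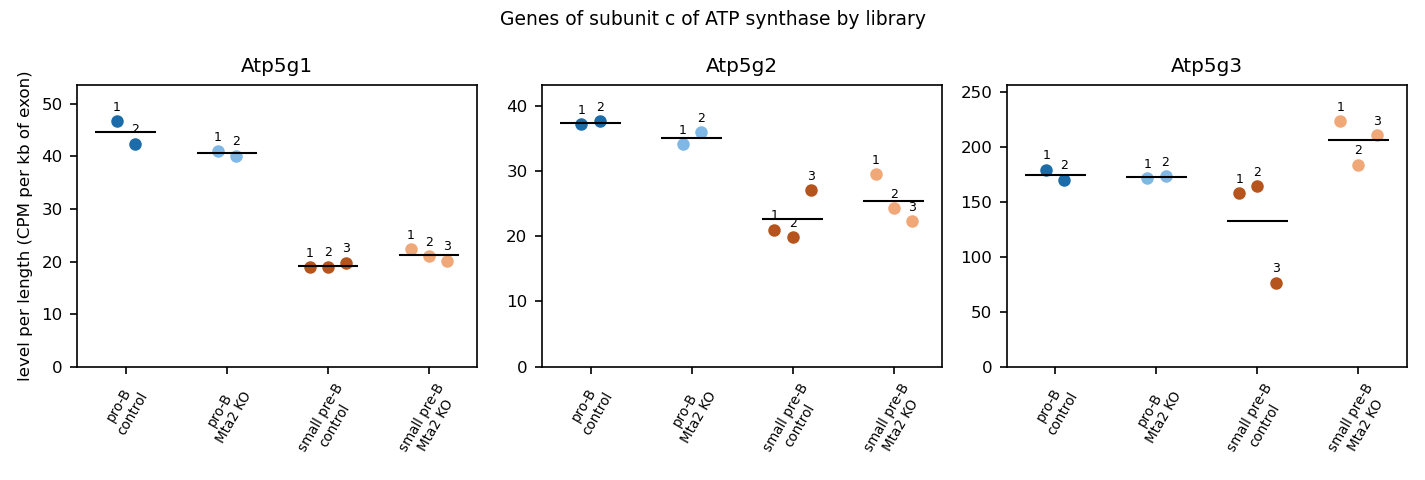
Level of Atp5g1, Atp5g2 and Atp5g3 per length (CPM per kb of exon, linear axis from 0) in each library; points are libraries, numbered by replicate, and lines are group means. Atp5g1 lies lower in all 6 small pre-B libraries than in all 4 pro-B libraries, while Atp5g3 is low only in small pre-B control 3.

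The summed level of all 92 genes was 7190 and 6897 CPM in pro-B controls and 6818 and 7120 CPM in pro-B KO. At the small pre-B stage the controls had 6325, 6104 and 6195 CPM and the KO libraries 6896, 6194 and 7262 CPM. The small pre-B controls lay below all 4 pro-B libraries, at 0.881 of the level of the pro-B controls, and small pre-B KO library 2 lay with the small pre-B controls while the other 2 KO libraries lay with or above the pro-B libraries. As an unscaled share of the counts the ratio of the controls was 0.788. Fewer cells of a type and less RNA per cell cannot be told apart in such libraries. Of the counts, the members took 0.735 to 0.770% in pro-B controls and 0.568 to 0.613% in small pre-B controls.

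**Figure D2:**
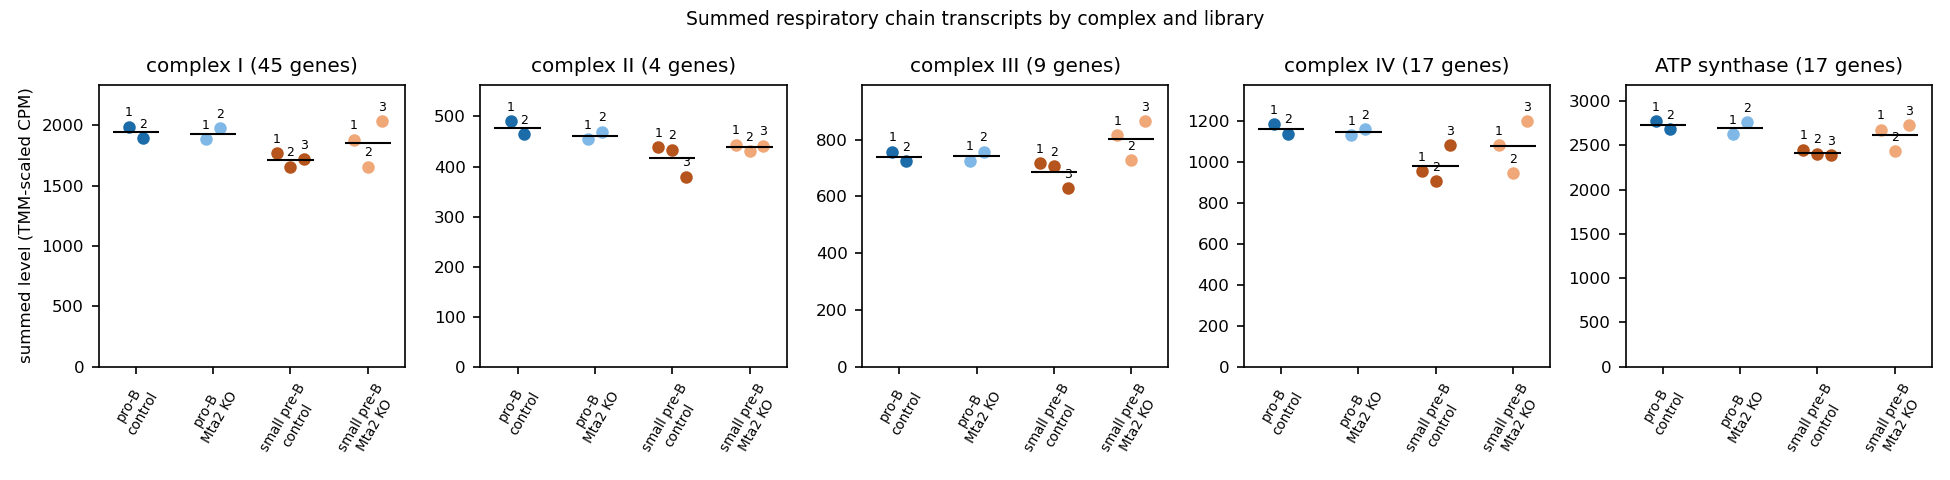
Summed level (TMM-scaled CPM, linear axis from 0) of the members of each complex in each library; points are libraries, numbered by replicate, and lines are group means. In all 5 panels the 3 small pre-B controls lie below the 4 pro-B libraries, and small pre-B KO library 2 lies below the other 2 KO libraries.

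Per length, the members spanned a wide range in pro-B controls. The catalytic subunit Atp5b was the highest, at 375 CPM per kb, followed by Atp5a1 at 304, Cox6a1 at 282, Cox8a at 280 and Cox4i1 at 270 CPM per kb. Atp5a1 and Atp5b, which form the head of ATP synthase, gave 20.4% and 20.6% of the summed CPM of all members in the pro-B controls. Complex III ranged from 40.2 CPM per kb (Uqcrfs1, the iron-sulphur protein) to 257 (Uqcrh), complex II from 40.7 (Sdhc) to 97.2 (Sdhb), and Ndufs1, the lowest core subunit of complex I, lay at 26.3 CPM per kb. The assembly factors of complex I named Ndufaf, which are not part of the finished complex, lay between 2.64 (Ndufaf5) and 16 CPM per kb (Ndufaf3).

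Of the isoform families, the widely expressed gene was the high one in these cells. In pro-B controls Cox4i1 was at 181 and 186 CPM against 0.306 and 0.054 CPM for Cox4i2, an isoform known from lung. Cox6b1 was at 136 and 125 CPM against 4.70 and 5.45 CPM for Cox6b2, known from testis. Cox7a2 was at 66.7 and 61.6 CPM against 0.630 and 1.60 CPM for the muscle isoform Cox7a1, and Cox8a was at 157 and 149 CPM. Ndufa4, named for complex I but known as a complex IV subunit, was at 84.3 and 75.3 CPM.

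5 members had too few counts to be tested. Cox8c and Cox7b2, both known from testis, had 0 counts in all libraries, Cox8b (muscle) had 12 counts in total and Ndufa4l2 had 15. Ndufs5, a subunit of complex I, also had 0 counts, and 95.1% of its exon bases are overlapped by the gene BC002163 in the annotation, so its level cannot be read from these files. In all, 19 members share at least 10% of their 50-base stretches with annotated transcripts of other genes. Copies outside annotated transcripts were not searched for. At least 5% of exon bases are overlapped by another gene in 7 members (24 with either). The low values of Atp5l (1.59 and 1.58 CPM in pro-B controls, 68.5% of stretches shared) and Ndufab1 (3.11 and 3.65 CPM, 66.6% shared) are therefore uncertain. Shared stretches also made up 53.8% of Ndufa12, 50.5% of Atp5h, 43.2% of Uqcrb, 30.6% of Cox5b, 12.3% of Cox6a1 and 10.9% of Uqcr11, and Gabpa overlaps 16.2% of the exon bases of Atp5j.

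Between stages in controls, 30 of the 87 tested members were lower in small pre-B than in pro-B cells and 6 were higher (adjusted p under 0.05 over all 14161 tested genes). Together 41.4% were called, against 55.4% of all tested genes, of which 26% were higher and 29.4% lower. The share of lower members, 34.5%, was thus near the background and the share of higher members, 6.90%, below it. The median log2 fold change was -0.22 over the members and -0.02 over all tested genes. All small pre-B controls lay below both pro-B controls in 50 members (57.5%, against 38.9% of all tested genes), and above them in 15 (17.2%, against 34.1%). The file headers name different directories for the pro-B and the small pre-B libraries, so stage and any batch tied to it cannot be told apart. Of the 64 tested members with under 10% of stretches shared and under 5% of exon bases overlapped, 20 were lower and 4 higher, with a median of -0.22.

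Of the 7 core subunits of complex I, which carry electrons from NADH to ubiquinone, 1 was higher and 0 were lower, with a median log2 fold change of 0.13. Whether they differed from the other members was not tested. Ndufs1, the largest of them, was at 75.5 and 78.6 CPM in pro-B controls and at 107, 99.8 and 106 CPM in small pre-B controls. Every small pre-B library lay above every pro-B library, with a log2 fold change of 0.44 ± 0.09 (adjusted p = 0.00329). Ndufs8 had 0.26 ± 0.12, Ndufs3 0.13 ± 0.19, Ndufv2 -0.18 ± 0.14, Ndufv1 -0.26 ± 0.10 and Ndufs7 -0.39 ± 0.16, none of which passed.

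Of 28 tested accessory subunits of complex I, which surround the core, 11 were lower and 1 higher, with a median of -0.23. The largest fall was in Ndufa1, a small membrane subunit, at 44.5 and 44.1 CPM in pro-B controls and 21.5, 19.9 and 24.3 CPM in small pre-B controls. The groups lay far apart (-1.02 ± 0.15, adjusted p = 0.000401). Ndufv3, next to the NADH site, was at 68.6 and 66.5 against 36.6, 35.2 and 37.3 CPM, the smallest p of complex I (-0.89 ± 0.09, adjusted p = 7.26e-05). Ndufa8 fell by 0.80, Ndufb7 by 0.71 and Ndufb10 by 0.56 on the log2 scale. Ndufs4, an accessory subunit next to the NADH site, was the accessory subunit that rose: it was at 29.3 and 29.1 CPM in pro-B and 40.1, 38.2 and 46.0 CPM in small pre-B controls (0.51 ± 0.14, adjusted p = 0.0142).

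The Ndufaf assembly factors moved both ways, with 3 of 7 lower and 1 higher. Ndufaf3 was at 17.9 and 16.2 CPM in pro-B and at 27.0, 22.7 and 25.1 CPM in small pre-B controls (0.55 ± 0.15, adjusted p = 0.014). Ndufaf2 was at 9.0 and 7.04 against 4.29, 4.31 and 2.73 CPM (-1.09 ± 0.29, adjusted p = 0.0104), and Ndufaf4 at 15.3 and 13.7 against 8.75, 9.06 and 7.41 CPM (-0.79 ± 0.17, adjusted p = 0.00334). No library of one stage overlapped with the other in these 3 genes. Ndufaf7 fell by 0.50. Atp5sl, named for ATP synthase but known as an assembly protein of complex I, rose from 76.0 and 74.5 to 121, 93.7 and 110 CPM (0.52 ± 0.13, adjusted p = 0.00924).

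Of the 4 subunits of complex II, which is also an enzyme of the tricarboxylic acid cycle, 2 were lower. Sdhc, a membrane anchor, was at 49.4 and 46.6 CPM in pro-B and 39.5, 34.2 and 32.1 CPM in small pre-B controls (-0.45 ± 0.12, adjusted p = 0.0101). Sdhb, the iron-sulphur subunit, had -0.28 ± 0.10 (adjusted p = 0.0371), a call lost without small pre-B control 3 (adjusted p = 0.0524). Sdha, the catalytic subunit, had -0.22 ± 0.11 and the anchor Sdhd 0.10 ± 0.11, and neither passed.

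Complex III held members of both directions. Uqcrfs1, the catalytic iron-sulphur protein, was at 55.0 and 50.5 CPM in pro-B and 77.7, 76.4 and 65.2 CPM in small pre-B controls (0.47 ± 0.13, adjusted p = 0.0121). The small subunit Uqcr11 was at 41.2 and 39.3 against 17.8, 18 and 22.5 CPM (-1.05 ± 0.15, adjusted p = 0.000394). Uqcr10 fell by 0.67 and Uqcrb, which helps form the ubiquinone site, by 0.66. The core proteins Uqcrc1 (-0.08 ± 0.10) and Uqcrc2 (0.08 ± 0.10) and the cytochrome Cyc1 (-0.05 ± 0.19) did not pass.

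In complex IV 5 of 14 tested members were lower and 1 higher. Cox6a1 was at 156 and 144 CPM in pro-B and 86.8, 86.5 and 88.7 CPM in small pre-B controls (-0.78 ± 0.12, adjusted p = 0.000718). Cox8a was at 157 and 149 against 98.4, 93.0 and 105 CPM (-0.63 ± 0.10, adjusted p = 0.000603). The groups were clearly apart in both genes. Cox5b fell by 0.48, Cox7b by 0.47 and Cox4i1 by 0.31. Cox7c was at 18.6 and 16.9 against 24.7, 21.8 and 42.9 CPM (0.75 ± 0.28, adjusted p = 0.0473), and without small pre-B control 3, the highest library, it no longer passed (0.39 ± 0.18, adjusted p = 0.0883). Of its 50-base stretches 48.2% occur in annotated transcripts of other genes.

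In ATP synthase 6 of 15 subunits were lower, 0 were higher and the median was -0.35. Beside Atp5g1 and Atp5g2 these were Atp5d of the central stalk, at 153 and 153 CPM in pro-B and 102, 91.4 and 65.0 CPM in small pre-B controls (-0.83 ± 0.17, adjusted p = 0.00339), and Atp5h, Atp5k and Atp5o, which fell by 0.54, 0.50 and 0.35. The head subunits differed less: Atp5a1 was at 749 and 730 against 732, 740 and 815 CPM (0.04 ± 0.10) and Atp5b at 719 and 691 against 624, 611 and 642 CPM (-0.17 ± 0.10, adjusted p = 0.16). Pro-B and small pre-B controls overlapped in Atp5a1 and not in Atp5b.

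In the Mta2 KO, 20 members were lower and 8 higher in small pre-B than in pro-B cells, 32.2% in all against 51.3% of all tested genes, of which 24% were higher and 27.3% lower. The median was -0.04. Of the lower calls 18 were shared with the controls, 60% of those in controls and 90% of those in KO. Over all tested genes 78.5% of the lower calls in controls and 84.5% of those in KO were shared. Of the higher calls 4 were shared (Ndufs1, Ndufs4, Ndufaf3 and Uqcrfs1), 66.7% of those in controls and 50% of those in KO. Over all tested genes these shares were 76.6% and 83.2%. The comparisons share no library but share 1 estimate of the spread, and 0 members had opposite calls. The difference between genotypes in the stage effect is the same quantity as the difference of the KO effects, given further on. The falls in the KO included Ndufaf2 (-1.23 ± 0.29, adjusted p = 0.00642), Ndufa1 (-1.10 ± 0.15, adjusted p = 0.00027), Ndufv3 (-0.99 ± 0.09, adjusted p = 4.01e-05) and Uqcr11 (-0.79 ± 0.15, adjusted p = 0.00203). Other higher calls included Ndufaf1 (0.57 ± 0.16) and Ndufc1 (0.61 ± 0.15). The count of 8 also holds Cox4i2, whose levels were 0.0728 and 0.0793 CPM in pro-B KO, just above that of 3 counts, and 0.462, 0.316 and 0.793 CPM in small pre-B KO. Cox4i2 was not tested with a filter of 1 CPM, and its call is uncertain. These counts rest on both pro-B KO libraries: without library 1 there were 2 higher and 11 lower members, and without library 2 there were 4 and 6. The calls over all genes fell too, to 14.9% higher and 19.6% lower without library 1 and to 14.1% and 18.3% without library 2.

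**Figure D3:**
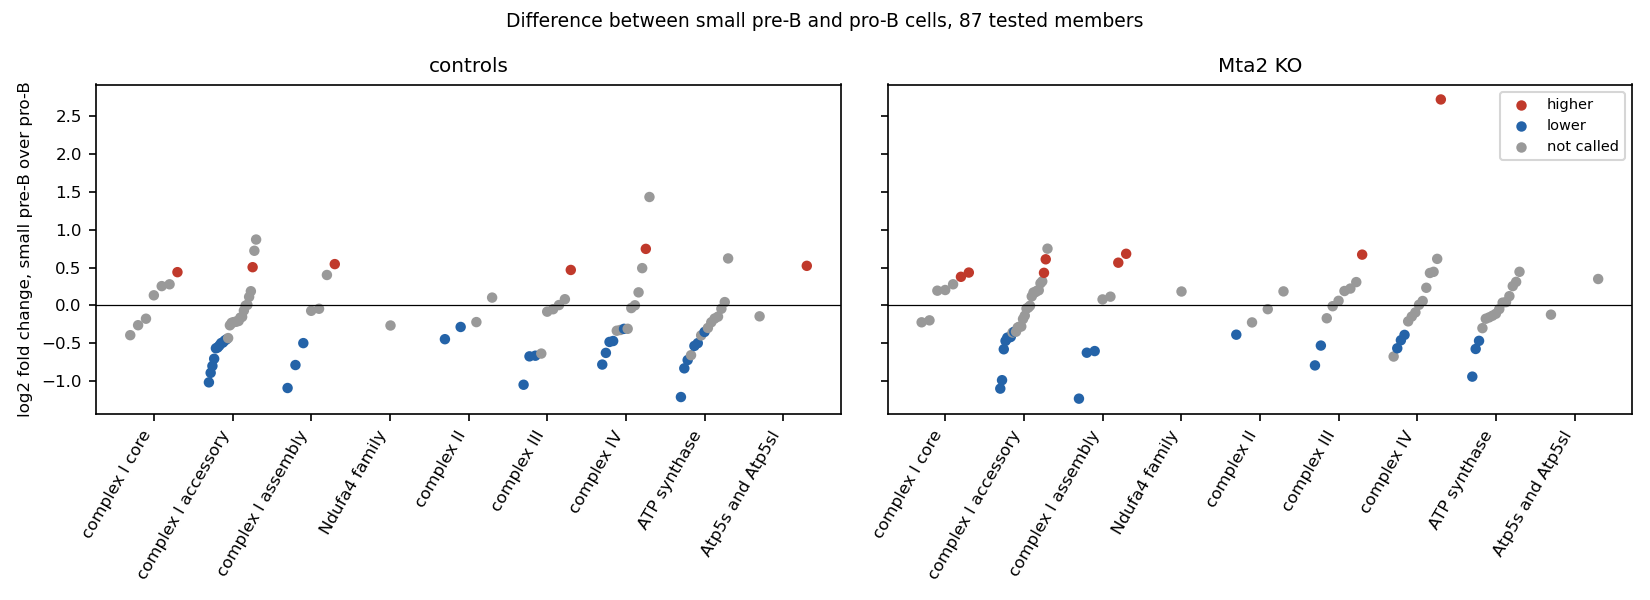
Log2 fold change of small pre-B over pro-B cells for the 87 tested members by role, in controls (left) and Mta2 KO (right); points are genes in order of size within a role, coloured by call at an adjusted p of 0.05. In controls 30 points are lower and 6 higher, and the 7 core subunits of complex I lie around 0.

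When Mta2 KO and control pro-B cells were compared, 0 of 87 members were called, against 0.0353% of all tested genes. Mta2 itself did not pass in this comparison (-1.31 ± 0.24, adjusted p = 0.212, edgeR). DESeq2's Wald test also called 0 members, against 1.29% of all tested genes. The median log2 fold change over the members was -0.02 in edgeR, with a median SE of 0.16. Of the members 34 lay above 0 (48.7% of all tested genes did), and 1 had an unadjusted p under 0.05 (edgeR). That member, Cox6b2, was at 4.70 and 5.45 CPM in controls and 10.7 and 9.84 CPM in KO, with no overlap (1.01 ± 0.42, adjusted p = 0.714). The next smallest p-values were those of Ndufv3 (0.21 ± 0.10), Cox4i2 (-1.20 ± 0.87) and Cox6a1 (-0.16 ± 0.14), which did not pass.

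In small pre-B cells 0 of 87 members were called as well, against 3.02% of all tested genes (1.89% higher and 1.14% lower), with 17 members (19.5%) at an unadjusted p under 0.05, as were 3495 of all tested genes (24.7%; edgeR). The 428 calls over all genes were unstable: there were 1667 without small pre-B control 2, 280 without control 3, 149 without KO 3, at most 18 without any other library and 0 in a fit of the compared groups alone. DESeq2's Wald test called 4 members higher, while it called 7.47% of all tested genes higher and 5.61% lower. With limma-voom 1 member was higher, against 2.21% of all tested genes. The median log2 fold change was 0.13 (0.01 over all tested genes), 69 members lay above 0 (50.6% of all tested genes did) and 18 below. By exon length, the median below 500 bases was 0.26 over members and -0.03 over all such genes. From 500 to 700 bases both medians were 0.14. From 700 to 1000 bases members had 0.19 and all genes 0.09, and from 1000 to 1500 bases 0.09 and 0.07. Above 1500 bases members had 0.03 and all genes -0.01. The part of exon length in this shift was not tested. Every KO library lay above every control in 19 members (21.8%, against 13.3% of all tested genes) and below in 0 (against 11.7%). Some lists of markers of other cells differed between the groups. The 10 T cell genes summed to 7.56 to 20.1 CPM in small pre-B controls and 59.6 to 100.3 CPM in KO. The 7 stem and progenitor genes summed to 16.4 to 30.9 CPM in these controls and 44.9 to 90.7 CPM in KO. In that list Kit had a mean of 9.80 CPM in controls and 56.4 CPM in KO, while Meis1 was lower in KO (10.7 against 5.76 CPM). The sums of the 8 natural killer genes overlapped, at 9.94 to 123 CPM in controls and 90.4 to 171 CPM in KO. The part of these lists in the values of the members was not tested.

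Cox6b2 had the smallest p among the members. Small pre-B controls had 5.52, 8.70 and 3.01 CPM and KO libraries 16.3, 11.8 and 19.1 CPM, with no overlap (1.46 ± 0.35, adjusted p = 0.0572). Without control 2, the highest control, its adjusted p was 0.00935, and without control 3 it was 0.0602. At both stages the KO libraries lay above the controls. The next were 2 accessory subunits of complex I and 1 subunit of ATP synthase. Ndufb7 was at 38.8, 40.1 and 34.9 CPM in controls and 48.6, 46.3 and 56.6 CPM in KO (0.41 ± 0.10, adjusted p = 0.0646). Ndufb2 was at 9.20, 9.67 and 9.66 against 15.5, 12.2 and 14.6 CPM (0.56 ± 0.15, adjusted p = 0.0695), and Atp5k at 27.6, 32.3 and 32.1 against 37.9, 38.3 and 46.1 CPM (0.41 ± 0.12, adjusted p = 0.0852). None of these passed in edgeR, though the libraries of each did not overlap, and these are the 4 genes that DESeq2 called.

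By complex, all 9 members of complex III lay above 0 with a median of 0.25 (50.6% of all tested genes lay above 0). In 5 of them every KO library exceeded every control (55.6%, against 13.3% of all tested genes). Small pre-B control 3 was low in Uqcrq and Cyc1 of this complex. Without it their log2 fold changes were 0.17 ± 0.10 and 0.13 ± 0.08. The 15 subunits of ATP synthase had a median of 0.18 (14 above 0), complex II 0.10 (4 of 4 above 0), complex IV 0.09 (10 of 14) and the accessory subunits of complex I 0.12 (24 of 28). The Ndufaf factors had -0.04 (3 of 7 above 0). KO library 2 was the lowest of the 3 KO libraries in the summed level of each of the 5 complexes, and without it the median over all members was 0.20, while without KO library 3 it was 0.08.

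For the difference of the KO effects between stages, 0 members were called, as were 0 of all tested genes, and 2 members (Ndufb2 and Uqcr10) had an unadjusted p under 0.05 (edgeR), against 907 genes in all. The median was 0.16 and 69 members lay above 0 (50.7% of all tested genes did). The median SE of this difference over the members was 0.21.

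**Figure D4:**
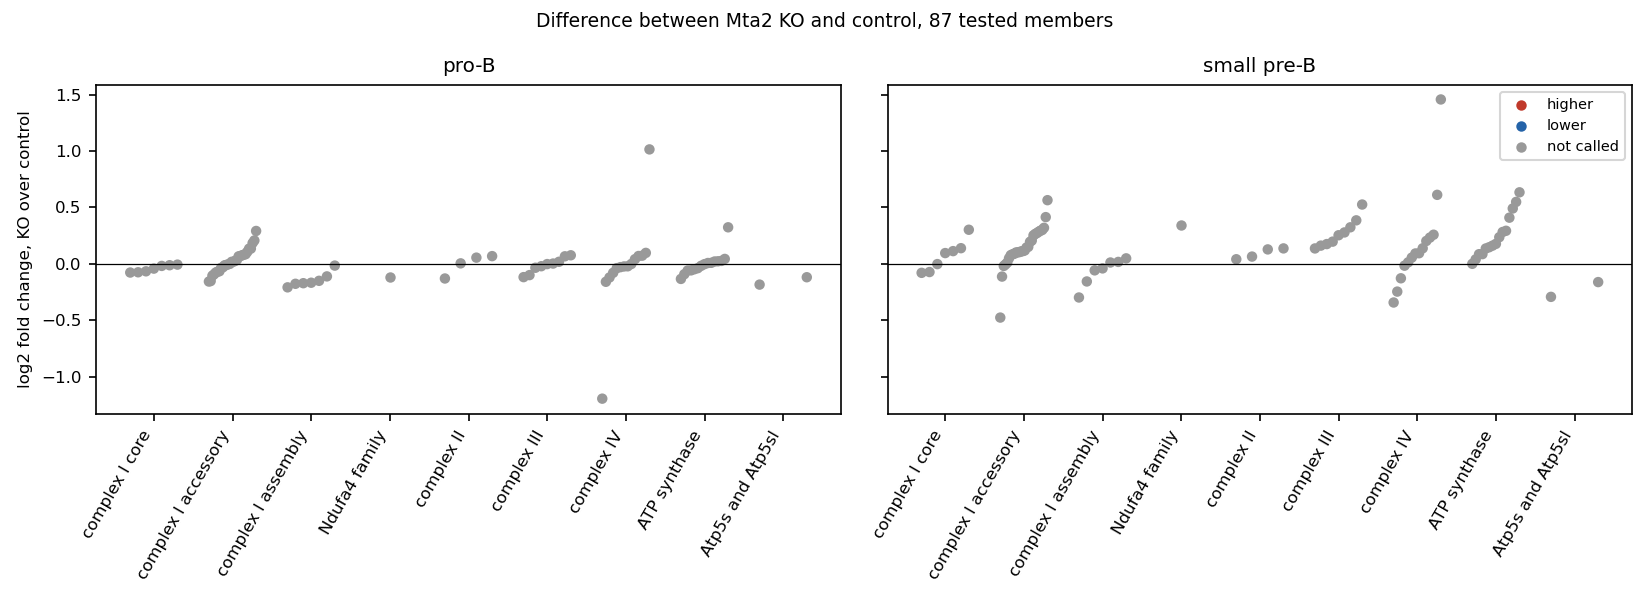
Log2 fold change of Mta2 KO over control for the 87 tested members by role, in pro-B cells (left) and small pre-B cells (right); points are genes in order of size within a role, and all are grey because 0 members were called. In small pre-B cells 69 points lie above 0, in pro-B cells 34.

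Small pre-B control 3 differed from the other 2 controls in single members. It lay more than 1.5 times below both in 9 members (10.3%, against 12.8% of all tested genes) and more than 1.5 times above both in 5 (5.75%, against 11.4%). Uqcrq of complex III was at 37.6, 38.2 and 13.4 CPM in controls 1 to 3, and Atp5j, a stalk subunit of ATP synthase, at 67.8, 73.4 and 25.9 CPM. Cox5a was at 74.5, 78.8 and 36.4 CPM. Above the others lay Cox6c at 50.3, 45.2 and 88.6 CPM and Cox7a2l, known to join complexes III and IV into larger assemblies, at 168, 141 and 252 CPM. Control 1 stood so apart in 1 member and control 2 in 1. With control 3 left out, 36 members were lower and 7 higher between stages in controls (over all genes 30.7% were lower and 27.9% higher), Uqcrq (-0.28 ± 0.11, adjusted p = 0.0485) and Atp5j (-0.31 ± 0.11, adjusted p = 0.0424) being among those then lower, and 0 were called for the KO in small pre-B cells.

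**Figure D5:**
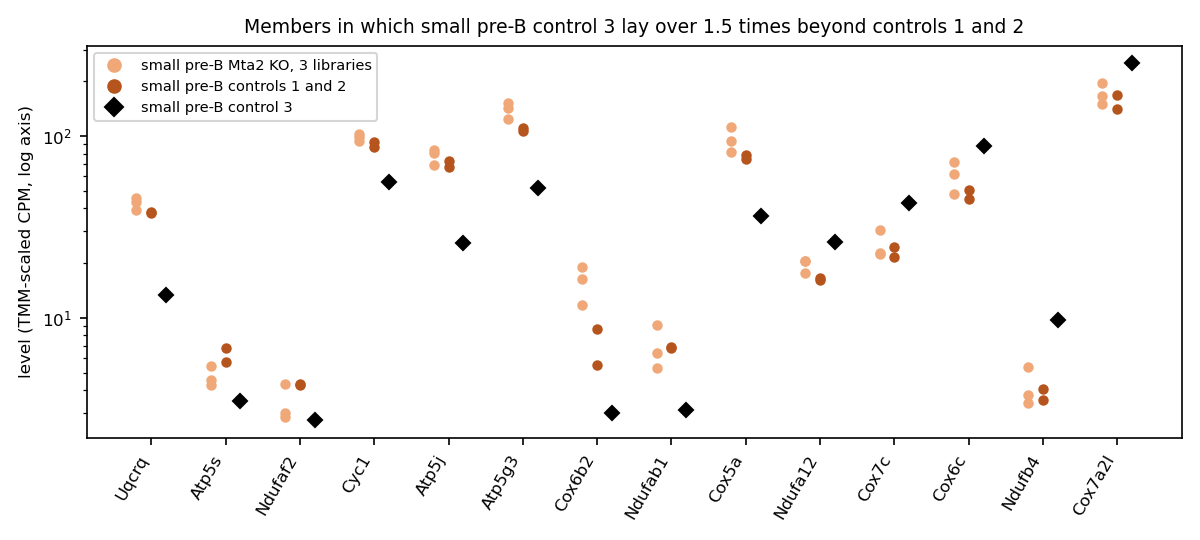
Level (TMM-scaled CPM, log axis) of the 14 members in which small pre-B control 3 (diamond) lay over 1.5 times beyond controls 1 and 2 (dark points), with the 3 small pre-B KO libraries (light points). Control 3 lies below in the 9 genes on the left and above in the 5 on the right.

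Members with short transcripts had lower medians between stages than those with long ones. Below 500 bases of exon the median log2 fold change between stages in controls was -0.30 over 15 members (0.43 over all 261 such genes), from 500 to 700 bases it was -0.40 over 27 members (-0.32 over all 324), and from 700 to 1000 bases -0.37 over 12 (-0.24 over all 658). From 1000 to 1500 bases it was -0.05 over 17 members (-0.20 over all 1510), and above that -0.08 over 16 (0.03 over all 11408). Across genes, which share the libraries, Spearman's rho of length and log2 fold change was 0.256 over the 87 members and 0.120 over all tested genes.

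Promoters were searched for the motif of NRF1, a regulator known for respiratory chain genes, in the 250 bases before the start in RefSeq's GRCm38.p6 annotation. Of the 92 members 76 matched a window by symbol or, failing that, by synonym. The tested genes were matched by symbol alone, so the shares of members and tested genes rest on unlike matching. The letters GCGCA, then any base, then GCGC, on either strand, occurred in 14 of them (18.4%), in 8.64% of 10381 tested genes with a window and in 4.23% of all 27025 windows. Among members lower in small pre-B controls 8 of 27 held it (29.6%), among those higher 0 of 5 and among the uncalled 5 of 41 (12.2%). The letters CCGGAAG of the ETS family, which includes Gabpa, occurred in 17.1% of members and 14.7% of tested genes, and AAGATGGC of YY1 in 2.63% and 2.42%. A match is a description of letters, and binding was not measured. The 4 windows of 100 bases shown are from lower members of complexes I, IV and ATP synthase, with the NRF1 letters in capitals, and lie at chr5:115349021-115349120 (minus strand) for Cox6a1, chr2:36049339-36049438 (minus) for Ndufa8, chr4:24897925-24898024 (plus) for Ndufaf4 and chr11:115420006-115420105 (minus) for Atp5h.
Cox6a1: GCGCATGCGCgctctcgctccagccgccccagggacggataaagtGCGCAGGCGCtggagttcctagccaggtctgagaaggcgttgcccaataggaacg
Ndufa8: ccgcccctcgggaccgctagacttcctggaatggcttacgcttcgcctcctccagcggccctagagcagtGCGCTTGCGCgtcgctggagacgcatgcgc
Ndufaf4: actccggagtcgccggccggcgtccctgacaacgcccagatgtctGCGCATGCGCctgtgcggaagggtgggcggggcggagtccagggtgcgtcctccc
Atp5h: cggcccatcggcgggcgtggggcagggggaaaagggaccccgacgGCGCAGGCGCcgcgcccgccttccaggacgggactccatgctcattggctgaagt
Cox6a1 holds the motif at 2 positions of its window and the other 3 genes at 1.

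Other genes of the pathway were followed by lists. Of 37 tested assembly factors outside the name rule 13 were higher (35.1%, against 26% of all tested genes) and 5 lower (13.5%, against 29.4%) in small pre-B controls, with a median of 0.15. Sdhaf2, which attaches flavin to Sdha, was at 63.1 and 52.3 CPM in pro-B and 152, 139 and 158 CPM in small pre-B controls (1.37 ± 0.14, adjusted p = 7.28e-05). Cox16 rose by 0.95 and Cox11, which delivers copper to complex IV, by 0.93, while Bcs1l, which inserts Uqcrfs1 into complex III, fell by 0.77. Lyrm7, a chaperone of Uqcrfs1, was the only member of these lists called for the KO at the small pre-B stage, with 10.1, 9.91 and 12.4 CPM in controls and 4.85, 5.37 and 4.94 CPM in KO (-1.09 ± 0.18, adjusted p = 0.0254). The call was lost in 8 of 10 fits that left out 1 library (adjusted p 0.0550 to 0.0904), all but those without small pre-B control 2 or 3, and in a fit of the compared groups alone (0.129), with log2 fold changes from -1.15 to -0.98 over the fits that left out 1 library. Its groups were well apart, and pro-B cells had 5.69 and 6.96 CPM as controls and 5.80 and 5.85 CPM as KO.

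Of 22 electron carriers and carrier proteins 2 were higher and 5 lower, 31.8% in all against 55.4% of all tested genes, with a median of -0.24. Coq7, an enzyme of ubiquinone synthesis, rose by 1.70 and Coq6 by 0.52, while the electron carriers Gpd2 and Etfb fell by 0.96 and 1.16. Of 16 genes of the tricarboxylic acid cycle and pyruvate dehydrogenase 4 were higher and 3 lower (43.8% in all), with a median of 0.09. Pdha1, a subunit of pyruvate dehydrogenase, was at 87.9 and 90.1 CPM in pro-B and 179, 167 and 163 CPM in small pre-B controls (0.93 ± 0.10, adjusted p = 7.19e-05), and Idh3a of isocitrate dehydrogenase fell by 0.84.

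Of 19 tested regulators of mitochondrial biogenesis 11 were higher (57.9%, against 26% of all tested genes) and 4 lower (21.1%, against 29.4%) in small pre-B controls, with a median of 0.64. Gabpb1, a partner of Gabpa, was at 80.7 and 74.8 CPM in pro-B and 158, 152 and 162 CPM in small pre-B controls (1.02 ± 0.10, adjusted p = 6.32e-05). Tfam, which packs mitochondrial DNA and helps transcribe it, rose by 0.65 (adjusted p = 0.000471) and Polg, its polymerase, by 1.04. Myc, which drives growth genes, was at 73.4 and 92.5 against 6.41, 12 and 3.15 CPM (-3.54 ± 0.50, adjusted p = 0.000372). Myc was thus among the 4 regulators that were lower, and its groups lay far apart. Small pre-B KO libraries had 17.3, 28.8 and 12 CPM of Myc, which did not pass against control (1.44 ± 0.45, adjusted p = 0.103).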

How the data were processed

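The deposited files hold raw counts per gene, 1 library each. They come from featureCounts 1.4.3-p1 on exons of an mm10 annotation, per the file headers, run without a strand option although the kit in the labels keeps strand, which makes overlapping genes uncertain. CASAVA 1.82, STAR and mm9 are given in the submitters' processing notes. Counts were tested with edgeR 4.0.16 (R 4.3.3): filterByExpr (minimum count 10), TMM scaling, 1 model with 4 group means over 10 libraries, robust quasi-likelihood tests, Benjamini-Hochberg adjustment over 14161 genes, threshold 0.05. The fit was tested on simulated data. Levels are TMM-scaled CPM, and SE is the log2 fold change over the root of F. Named were a set of core and isoform genes, called members (up to 4 per complex and direction where over 12 passed) and the 4 smallest p-values otherwise. Control 3 genes, the members below the limits of shared and overlapped sequence and the promoter windows shown were chosen after their values were seen. The members and lists were chosen with earlier results of these data known. Alternatives were 10 other fits and leaving out each of 10 libraries. Some single genes are not reported here.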

Additional observations from a re-analysis of the deposited data

How the results depend on the processing

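Leaving out each library in turn, the members called higher between stages in controls numbered 1 to 8 and those lower 16 to 36, against 6 and 30 with all libraries. In the Mta2 KO they numbered 2 to 15 and 6 to 24, against 8 and 20. The lowest counts came without a pro-B library: without pro-B control 1 there were 3 higher and 16 lower, and without pro-B control 2 there was 1 higher. In these fits the lone pro-B library was taken to have the spread of the other groups, and 37.0% of all genes were called in each, against 55.4%. For the KO in small pre-B cells the range was 0 to 2 higher, 2 being Cox6b2 and Ndufb7 without control 2. That fit called 11.6% of all genes. DESeq2's Wald test called 4 members higher in small pre-B KO and limma-voom 1 (Cox6b2), against 0. Of all tested genes DESeq2 called 13.1% there and limma-voom 3.09%, against 3.02% in the main fit. A fit of the compared groups alone called 1 higher in pro-B KO (Cox6b2, adjusted p = 0.015), with 86 members tested. It called 6.09% of all genes there, against 0.0353% in the main fit. The summed level of small pre-B over pro-B controls was 0.881, 0.788 as an unscaled share, 0.804 without Rn45s, Malat1 and histone genes, and 0.861 without Atp5a1 and Atp5b, an alternative chosen after seeing the data. No called value was reversed under the alternatives run. Of the values of single genes under the alternatives, 4021 kept their side, 36 passed only under the alternative and 81 lost the call, among them Cox7c (11 of 19 alternatives), Sdhb (10) and Cox4i1 (9) between stages in controls.

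With title numbers as a replicate block, 0 members were called in each KO comparison, the median in small pre-B cells was 0.13, and 153 genes of all were called there against 428. The numbers were not treated as pairs. Deviations of same-numbered libraries correlated at 0.0147 in pro-B cells and at 0.102, 0.155 and 0.0449 in small pre-B cells. Each small pre-B control correlated less with the KO libraries of other numbers (at most 0.00175, -0.0634 and -0.0179). In pro-B cells, with 2 libraries per group, both numbers give the same value by construction. Whether a KO library correlated best with its own number was not checked. With 2 libraries per pro-B group the calls there carry least precision.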

Other observations

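Other large sets of genes, picked by the start of their names, were counted the same way. Names of Rpl or Rps with a digit cover cytoplasmic ribosomal proteins but also other genes, such as the kinases named Rps6k. Of 92 tested genes with such names 42 were lower and 2 higher in small pre-B than in pro-B controls. Their median log2 fold change was -0.33. Of all tested genes 29.4% were lower and 26% higher, with a median of -0.02. Of 76 genes of mitochondrial ribosomal proteins, which build the machinery that translates the subunits encoded in mitochondrial DNA, 19 were lower and 6 higher, with a median of -0.13. Of 39 tested proteasome genes 6 were lower and 3 higher, with a median of -0.09. For the Mta2 KO in small pre-B cells 78 of the 92 genes named Rpl or Rps lay above 0 (median 0.17). So did 58 of the 76 mitochondrial ribosomal genes (0.08) and 35 of the 39 proteasome genes (0.11). Of the respiratory chain members 69 of 87 lay above 0 (0.13), and of all tested genes 50.6% (0.01). Of these sets 1 gene named Rpl or Rps and 2 proteasome genes were called, against 3.02% of all tested genes. Differences between the sets were not tested.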
